A study of Mus musculus with 26 samples.

Results

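Gene expression in the mesenteric arteries was compared with that in the aorta of mice whose smooth muscle lacked Sphk1 and that had received angiotensin II (AngII), a vasoconstrictor peptide. The comparison used 10 of the 26 libraries of the series, chosen by their labels: 5 of mesenteric arteries and 5 of aorta, all labelled hypertensive Sphk1 SMC KO. These were male mice, C57BL6J by label, with both Sphk1 alleles flanked by loxP sites and Cre driven by the promoter of Tagln, a smooth muscle gene (called KO here). They were infused with AngII at 490 ng/kg/min for 14 days from a minipump implanted at 12 to 14 weeks of age. The same vessel difference was read for reference in Cre-negative mice with the same loxP-flanked alleles (Sphk1 flox/flox, called WT here). Some had AngII at the same dose, duration and age (4 libraries per tissue), and others had sham treatment (4 per tissue). The age of the sham mice is not given. No KO mice without AngII were analysed here. Cre under the Tagln promoter deletes the gene where that promoter is active, so the other cells of the vessel wall can keep Sphk1, and the labels do not say whether both tissues came from the same animals.

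The aorta is a large elastic artery whose wall stores and returns part of the energy of each heartbeat. Mesenteric arteries are smaller, muscular vessels on the way to the gut that set resistance by contracting. Smooth muscle cells of different vessels come from different embryonic sources and keep part of their positional program in adult life, in which Hox and T-box transcription factors take part. Sphk1 encodes sphingosine kinase 1, which makes the lipid mediator sphingosine-1-phosphate (S1P). S1P leaves cells through transporters and acts on the G protein-coupled receptors S1pr1 to S1pr5.

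The values are read counts per gene, given below as CPM (counts scaled to a common library total, with TMM factors), always in the order of replicates 1 to 5. Counts assigned to genes were 23487946 to 31402618 per KO aortic library and 21931751 to 30050073 per KO mesenteric library. The groups differed in evenness: the common dispersion, the squared variation between replicates beyond counting noise, was 0.136 in the mesenteric arteries and 0.0179 in the aorta. In KO mesenteric replicates 2, 3 and 4, 11.4, 14.7 and 14.2% of records were not aligned. The share was 1.40 and 1.10% in replicates 1 and 5, and 0.669 to 0.745% in the KO aorta. Among the WT libraries, replicate 1 of the AngII mesenteric arteries had 12.0% not aligned. It also had the lowest count assigned to genes in the series, 17540532. The tables of the tissues were also made in different forms, with versioned gene identifiers for the mesenteric arteries only, so a difference in counting that went with tissue and a difference between the vessels cannot be told apart. All libraries are bulk tissue, so fewer cells of a type and less RNA per cell cannot be told apart either.

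Sphk1 itself was low in the KO libraries of both tissues. Scaled over all 26 libraries, KO aortas held 2.74, 1.92, 1.78, 3.43 and 3.17 CPM, and WT aortas after AngII 25.2, 23.7, 16.7 and 12.1 CPM. The KO mesenteric arteries held 2.81, 4.62, 4.62, 3.13 and 3.64 CPM and their WT AngII counterparts 13.9, 17.3, 13.1 and 9.51 CPM. In both tissues every KO library lay below every WT AngII library. Sham WT aortas held 3.17 to 6.19 CPM, a range that overlapped that of the KO aortas. Sham WT mesenteric arteries held 7.15 to 9.12 CPM, above every KO mesenteric library. Without KO mice free of AngII, the effect of the deletion apart from AngII was not tested. Within KO mice, the log2 difference between the vessels (mesenteric minus aorta, here and throughout, so that a negative value is higher in the aorta) was 0.54 ± 0.24 (SE), with an adjusted p of 0.0886 and overlapping groups. An exact two-sided permutation test of Sphk1 over the 10 libraries gave p = 0.0556. The same difference was -0.54 ± 0.25 in WT mice with AngII (adjusted p = 0.142) and 0.78 ± 0.19 in sham WT mice (adjusted p = 0.00577). Because counts cover the whole gene, the remaining reads do not show which exons they came from.

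Without smooth muscle Sphk1 the vessels differed in 7169 of 16707 genes tested (42.9%), a gene being called when its p, adjusted over all genes, was below 0.05. Of these, 3886 (23.3% of the genes tested) were higher in the mesenteric arteries and 3283 (19.7%) in the aorta. The counts of list members given below stand beside these shares. At least 2-fold differences with a call numbered 2040 (12.2%) and 1069 (6.40%). Mesenteric genes were 54.2% of the calls, and 70.2% when libraries were scaled by their totals alone, which moved the median of all genes from 0.05 to 0.18 on the log2 scale. Every library of one group lay above every library of the other for 2936 genes in favour of the mesenteric arteries (17.6%) and 2603 in favour of the aorta (15.6%).

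Most genes called between the vessels with Sphk1 intact were also called without it. Of the 2658 genes higher in the mesenteric arteries of WT AngII mice (16.0% of 16578), 2274 were called in the same direction in KO mice, which is 85.5% of the WT calls and 58.5% of the KO calls. Of the 2761 higher in the WT aorta (16.7%), 2214 were called in KO, 80.2% of the WT and 67.4% of the KO calls. No gene called in KO was called in the opposite direction in WT AngII mice. These comparisons share no library. In the sham WT mice 7115 of 16569 genes were called (42.9%). Taking these in as well, 1945 genes were higher in the mesenteric arteries in all 3 comparisons and 1699 in the aorta. Against the sham mice, 16 genes higher in the KO mesenteric arteries were called higher in the aorta and 41 the reverse, Piezo2 and Spp1 among the 41. Across 15965 genes tested in all groups, the KO and WT AngII log2 differences had a Pearson correlation of 0.949, a description only, since genes are not independent replicates.

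Whether the vessel difference itself depended on genotype was tested in 1 model of the 18 AngII libraries. None of 18075 genes passed an adjusted p of 0.05 with edgeR's quasi-likelihood test, and 623 (3.45%) had an unadjusted p below 0.05. limma voom also called 0, while DESeq2 called 11, of which 3 were shifted towards the mesenteric arteries and 8 towards the aorta: Acvr1b, Aqp12, Clps, Dmbt1, Galnt6os, Ighg3, Ighv5-17, Igkv5-39, Igkv6-32, Klk1 and Pnlip. Those 11 were named after their values were seen. Pnlip encodes pancreatic lipase and Clps its cofactor colipase, Aqp12 is a pancreatic water channel, and Ighg3, Ighv5-17, Igkv5-39 and Igkv6-32 are immunoglobulin genes. For 64.8% of genes the 95% interval of the genotype difference lay within 2-fold in either direction, so larger shifts are not bounded for the remainder. In data simulated at this design, 39 of 67 genes given a 2-fold genotype difference were recovered (58.2%). Of 67 given a 1.5-fold one, 8 were recovered (11.9%). These rates belong to the changed genes of the simulation and are not the power over all 18075 genes. They are not split by expression level or by tissue, although the KO tissues differed in common dispersion (0.136 and 0.0179).

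**Figure D1:**
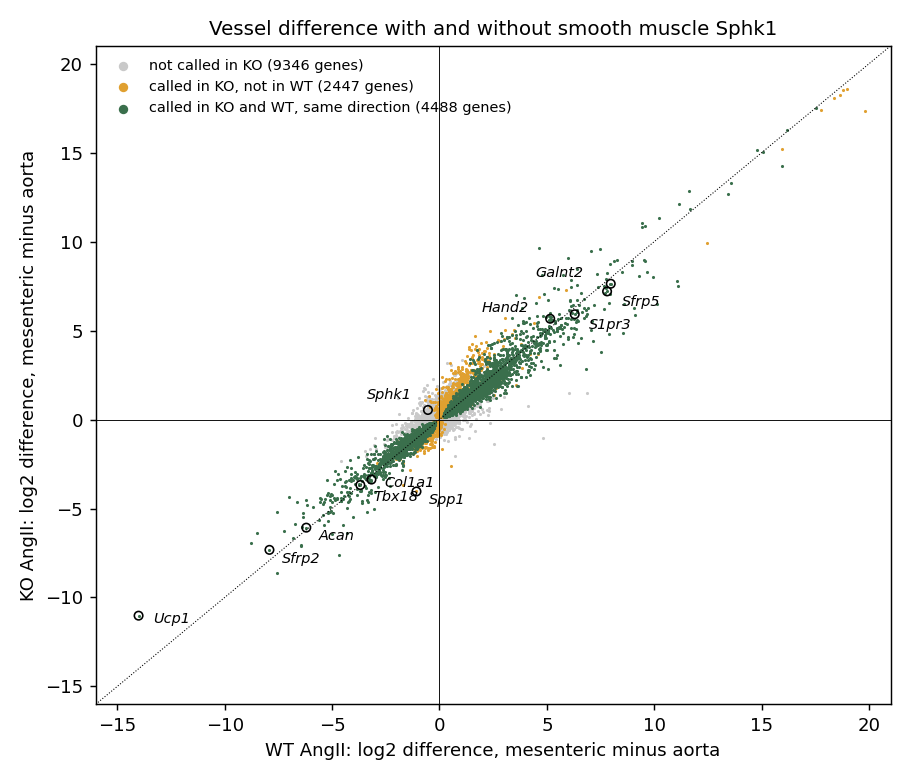
Each point is a gene, placed by its log2 difference between mesenteric arteries and aorta in WT AngII mice (x axis, 4 libraries per tissue) and in KO AngII mice (y axis, 5 per tissue), with the line of equality dotted. The 4488 genes called in both lie along that line, and Sphk1, at 0.54 in KO and -0.54 in WT, is not among them.

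Hox genes differed between the vessels by their place in the clusters. Of 39 Hox genes on the list 28 had enough counts to be tested; 10 were higher in the mesenteric arteries and 9 in the aorta. Those higher in the aorta were Hoxa2, Hoxa3, Hoxa5, Hoxa6, Hoxa7, Hoxb3, Hoxb4, Hoxb6 and Hoxb8, from the 3′ and middle parts of the A and B clusters. The mesenteric set was Hoxa9, Hoxa10, Hoxa11, Hoxc8, Hoxc9, Hoxc10, Hoxd4, Hoxd8, Hoxd9 and Hoxd10, in which paralogs numbered 8 and above prevail and Hoxd4 is the exception. Hox proteins are transcription factors laid down along the body axis in the order of their position in the cluster.

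Hoxd8 held 16.9, 16.9, 20.1, 16.5 and 20.6 CPM in the mesenteric arteries and 2.27, 3.96, 2.07, 1.71 and 2.56 CPM in the aorta. Every mesenteric library was above every aortic one, with a log2 difference of 2.86 ± 0.21 (adjusted p = 3.74e-06). The value for Hoxd8 was 3.09 in WT AngII and 3.33 in sham mice. Hoxb8, of the same paralog group in another cluster, ran the other way, at 5.51, 4.88, 4.48, 6.696 and 4.701 CPM against 19.1, 15.8, 17.2, 13.7 and 14.2 CPM in the aorta. Its groups did not overlap and its difference was -1.61 ± 0.14 (adjusted p = 1.02e-05), beside -1.61 in WT AngII mice. Hoxa3 was even between replicates, at 17.1 to 19.99 CPM in the mesenteric arteries against 33.9 to 40.1 CPM in the aorta (log2 difference -1.01 ± 0.07). Hoxd4 and Hoxd9 differed by 2.65 ± 0.26 and 3.46 ± 0.34. Hoxc10 was at 3.63, 1.92, 1.49, 1.77 and 4.28 CPM in the mesenteric arteries and at 0.0445, 0.4701, 0, 0 and 0 CPM in the aorta, where it had counts in replicates 1 and 2 only. Hoxa10 and Hoxc8 were called with overlapping groups; for the other 17 called Hox genes the groups did not overlap.

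**Figure D2:**
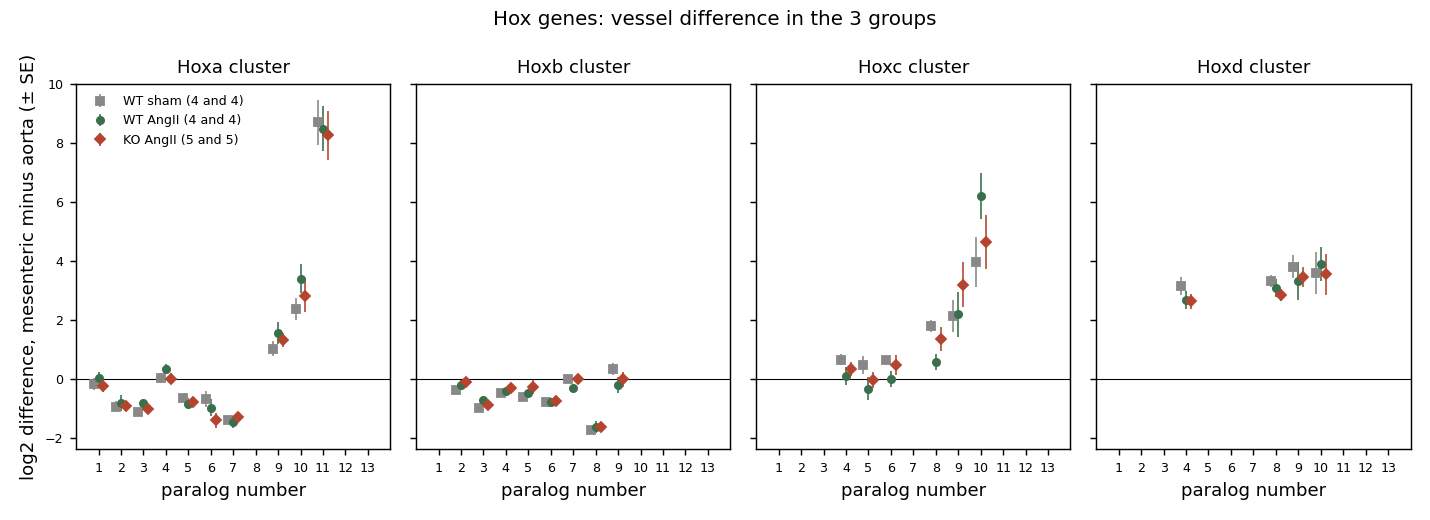
Log2 difference between mesenteric arteries and aorta (± SE) of the 28 Hox genes tested, by paralog number within each cluster, in KO AngII (diamonds), WT AngII (circles) and WT sham mice (squares), with 0 marking equal levels. In the A cluster, paralogs 2, 3, 5, 6 and 7 lie below 0 in all 3 groups and paralogs 9 to 11 above it, with Hoxa4 between them.

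Other regional transcription factors differed in both directions. Of 28 tested, 12 were higher in the mesenteric arteries and 12 in the aorta, and 12 and 13 were called in WT AngII mice. Hand2, a basic helix-loop-helix factor of heart, limb and visceral development, held 61.6, 62.3, 39.8, 117 and 65.3 CPM in mesenteric libraries and 1.33, 2.08, 1.03, 1.34 and 1.03 CPM in aortic ones. Its lowest mesenteric library was far above its highest aortic one, with a difference of 5.67 ± 0.34 (adjusted p = 1.24e-06). Nkx2-3, a homeobox factor of gut and splenic mesoderm, held 86.6, 75.7, 55.7, 74.1 and 87.4 CPM against 2.09, 2.82, 4.83, 1.24 and 1.696 CPM (difference 4.89 ± 0.33). Tbx2, a T-box factor, differed by 2.68 ± 0.20.

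On the aortic side, Tbx18, a T-box factor of the epicardium and of mural cells, held 58.8, 64.2, 71.8, 66.3 and 61.3 CPM in the aorta and 5.996, 5.52, 3.27, 4.35 and 6.03 CPM in the mesenteric arteries. The groups were far apart, and the difference of -3.68 ± 0.16 (adjusted p = 1.90e-07) stood beside -3.68 in WT AngII and -4.19 in sham mice. Tbx20, known from heart development, was at 3.65 to 6.62 CPM in the aorta and 0.0404 to 0.5303 CPM in the mesenteric arteries. Prrx1, a homeobox factor of limb mesenchyme among other sites, differed by -2.06 ± 0.16, and no library of one vessel reached the range of the other.

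Smooth muscle contractile genes were shared or higher in the mesenteric arteries. All 24 were tested; 14 were higher in the mesenteric arteries and 0 in the aorta (2 in the aorta without mesenteric replicate 4), and the median difference was 0.69 beside 0.05 over all genes. The alpha-actin gene Acta2 was among the most abundant in both vessels, with 13563, 10244, 7214, 12187 and 13773 CPM in the mesenteric arteries and 10872, 11999.8, 14818, 9287 and 8208 CPM in the aorta. Its groups overlapped (log2 difference 0.05 ± 0.21, adjusted p = 0.880). Tagln, whose promoter drives Cre in these mice, was not called either (difference 0.45 ± 0.20, adjusted p = 0.0914); without mesenteric replicate 3 it was called, at 0.56 (adjusted p = 0.0176).

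Des, which encodes the intermediate filament desmin, stood far apart between the vessels. It held 3226, 2634, 1741, 5731 and 3081 CPM in the mesenteric arteries and 68.2, 67.6, 103, 61.9 and 54.5 CPM in the aorta. The lowest mesenteric library was far above the highest aortic one, and the difference was 5.53 ± 0.35 (adjusted p = 1.73e-06). Pln, the phospholamban gene that restrains the calcium pump of the sarcoplasmic reticulum, held 139.8, 137, 90.8, 144 and 136 CPM against 2.001, 1.92, 2.4001, 2.32 and 4.34 CPM (difference 5.64 ± 0.25). Casq2, a calcium-storing protein of the same compartment, held 15.5, 39.9, 12.7, 84.99 and 14.1 CPM against 0.445, 0.548, 0.433, 0.706 and 1.06 CPM (difference 5.70 ± 0.68). Actg2, the gamma-actin of visceral smooth muscle, held 1119.8, 924, 589, 4288 and 1063 CPM against 123, 147, 232, 158 and 137 CPM (difference 3.32 ± 0.53). For Des, Casq2 and Actg2 the highest mesenteric value came from replicate 4, which also had the highest summed level of gut epithelial markers among the mesenteric libraries (256 CPM, the others 46.0 to 193 CPM). The part of gut tissue in these values was not tested.

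Among the highly expressed motor genes, Myh11, the smooth muscle myosin heavy chain, differed by 0.99 ± 0.21 (adjusted p = 0.00301), although mesenteric replicate 3 fell within the aortic range. Myl9, a myosin light chain, held 4419, 3019, 2256, 4469.7 and 3953 CPM against 2189, 2308, 2971, 1950.2 and 1765 CPM, a difference of 0.70 ± 0.21 (adjusted p = 0.0210). Its groups overlapped, and the call was lost when mesenteric replicate 1 (adjusted p = 0.0578), aortic replicate 4 (0.0556) or aortic replicate 5 (0.0536) was left out. In WT AngII mice 11 of the 24 were higher in the mesenteric arteries and none in the aorta. In sham mice 9 were higher in the mesenteric arteries and 6 in the aorta, against 22.0% and 20.9% of all genes tested there, and Acta2 was among the 6 at -0.39. Whether AngII changed the balance was not tested here.

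Several contractile genes are regulated through the CArG box, the binding motif of serum response factor. It was searched in the 250 bases before each gene's start in the RefSeq promoter table (mouse build GRCm38.p6), where 19 of the 24 contractile genes have an entry; the motif reads the same on both strands. It was found in 4 of their 23 promoters (17.4%), which belong to 3 genes (2 are overlapping windows of Ldb3), and in 1.47% of all 32851 promoters of that length. Tagln, Myh11 and Actg2 were not among the genes searched, and the 2 shares were not tested against each other. The 3 are shown because they are the list members with a match; capitals mark the CArG box, and each sequence is written 5′ to 3′ along the gene.
Myl9 (chr2:156775214-156775463, plus strand): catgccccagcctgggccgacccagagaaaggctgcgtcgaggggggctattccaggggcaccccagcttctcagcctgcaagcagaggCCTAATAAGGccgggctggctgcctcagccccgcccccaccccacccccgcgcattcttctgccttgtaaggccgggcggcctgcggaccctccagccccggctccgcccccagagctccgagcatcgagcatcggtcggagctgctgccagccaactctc
Srf (chr17:46556163-46556412, minus strand): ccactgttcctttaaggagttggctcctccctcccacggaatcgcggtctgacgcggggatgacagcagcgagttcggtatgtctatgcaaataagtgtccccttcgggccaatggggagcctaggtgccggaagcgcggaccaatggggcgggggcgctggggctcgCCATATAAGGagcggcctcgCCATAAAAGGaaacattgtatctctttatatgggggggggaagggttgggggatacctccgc
Ldb3 (chr14:34588608-34588857, minus strand): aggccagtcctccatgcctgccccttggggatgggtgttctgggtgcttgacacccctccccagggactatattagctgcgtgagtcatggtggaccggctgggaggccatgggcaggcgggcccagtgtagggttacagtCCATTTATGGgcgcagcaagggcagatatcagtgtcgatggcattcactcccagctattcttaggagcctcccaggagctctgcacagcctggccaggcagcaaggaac
Of the 3, Myl9 was called, at the value above. Srf, the gene of serum response factor itself, carries a pair of boxes 82 and 62 bases before its start and differed by 0.48 ± 0.21 (adjusted p = 0.0871). It was called without mesenteric replicate 3 (0.58, adjusted p = 0.0278), with limma voom (adjusted p = 0.0373), with all 26 libraries in the fit (adjusted p = 0.0263) and with scaling by totals alone (adjusted p = 0.0280). Ldb3, a Z-disc protein gene, held 105 to 211 CPM in the mesenteric arteries and 145 to 197 CPM in the aorta and was not called (adjusted p = 1.00). The windows of Acta2, Cnn1, Des, Pln and Casq2 hold no match, which concerns these letters in this window only.

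Ion channel and calcium handling genes were more often higher in the mesenteric arteries. Of 35 tested, 16 were higher there and 5 in the aorta, the latter a smaller share than the 19.7% of all genes tested. The aortic count was 9 without mesenteric replicate 4. It was 3 when mesenteric replicate 2 or 5 or aortic replicate 1, 2, 3 or 4 was left out. Kcna2, a voltage-gated potassium channel subunit, held 153, 144, 169, 168 and 157 CPM in the mesenteric arteries and 6.003, 5.05, 3.1002, 4.54 and 5.601 CPM in the aorta. Both groups were tight and far apart (difference 5.03 ± 0.16, adjusted p = 5.36e-08). Its relative Kcna5 held 67.8, 54.4, 44.4, 55.7 and 87.3 CPM against 3.69, 4.35, 2.37, 3.999 and 6.67 CPM (difference 3.88 ± 0.28). Trpc6, a cation channel opened by receptor signalling, was low in both vessels, at 4.68 to 6.15 CPM against 0.167 to 0.445 CPM, and differed by 3.97 ± 0.26. Cacna1h, a T-type calcium channel, held 45.9, 43.6, 42.6, 152 and 64.8 CPM against 6.27, 5.99, 6.43, 6.25 and 4.34 CPM and differed by 3.57 ± 0.39.

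The 5 higher in the aorta were Ano1, Abcc9, Piezo2, Cacna1d and Kcnmb1. Ano1, a calcium-activated chloride channel, held 174, 181, 180.4, 172 and 138 CPM in the aorta against 29.7, 55.8, 51.3, 84.5 and 30.2 CPM in the mesenteric arteries. All aortic values were above all mesenteric ones, with a difference of -1.75 ± 0.27 (adjusted p = 5.11e-04). Abcc9, a subunit of ATP-sensitive potassium channels, differed by -1.22 ± 0.25. Piezo2, a mechanically gated channel, differed by -1.38 ± 0.20 in KO and by -1.27 in WT AngII mice, and was at 0.54, higher in the mesenteric arteries, in sham mice (adjusted p = 0.00500).

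Receptors and effectors of vasoactive signals followed the same pattern, with 24 of 50 tested higher in the mesenteric arteries and 6 in the aorta (10 in the aorta without mesenteric replicate 4). The 6 in the aorta were a smaller share than the 19.7% of all genes tested. P2rx1, the ATP-gated channel through which sympathetic nerves contract small arteries, held 697, 493, 401, 471 and 739 CPM against 53.8, 77.02, 75.3, 44.7 and 37.9 CPM in the aorta. The ranges were far apart, and the difference was 3.28 ± 0.26 (adjusted p = 6.51e-06), beside 3.43 in WT AngII and 3.40 in sham mice. Adra2b, an alpha-2 adrenoceptor, held 3.55, 9.897, 2.91, 8.72 and 3.203 CPM against 0.267, 0.0392, 0.233, 0 and 0.0394 CPM and differed by 5.58 ± 0.73. Oxtr, the oxytocin receptor, and Ptgir, the prostacyclin receptor, differed by 3.33 ± 0.25 and 1.71 ± 0.14.

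Both guanylate cyclase receptors of natriuretic peptides ran the other way. Npr1, the receptor for atrial natriuretic peptide, held 312, 353, 386, 338 and 316 CPM in the aorta and 105, 145, 124, 91.05 and 113 CPM in the mesenteric arteries (difference -1.56 ± 0.12, adjusted p = 5.26e-06). The groups did not overlap. Npr2, the receptor for C-type natriuretic peptide, differed by -0.83 ± 0.12, while the clearance receptor gene Npr3 was not called (difference -0.05 ± 0.17, adjusted p = 0.833). Htr1b, a serotonin receptor, held 78.7, 83.6, 85.3, 88.01 and 89.6 CPM in the aorta against 26.4, 28.5, 13.8, 25.8 and 41.1 CPM and differed by -1.65 ± 0.22.

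Genes of the renin-angiotensin system, through which the infused peptide acts, were divided between the vessels: of 15 tested, 5 were higher in the mesenteric arteries and 6 in the aorta. Agt, Agtr1a, Agtr1b and Nr3c2 were among the 5. Agtr1b, which with Agtr1a encodes the type 1 AngII receptor in mice, held 13.5, 9.68, 6.905, 10.6 and 12.9 CPM in the mesenteric arteries and 3.56, 1.96, 2.03, 1.48 and 2.92 CPM in the aorta (difference 2.17 ± 0.27, adjusted p = 1.02e-04). No aortic library reached the mesenteric range. Agtr1a held 4.57, 5.84, 9.09, 11.7 and 6.66 CPM against 3.74, 5.88, 3.7002, 4.705 and 4.34 CPM. Its groups overlapped and its difference of 0.76 ± 0.25 (adjusted p = 0.0325) was not called without mesenteric replicate 3 or 4 or aortic replicate 1, 3, 4 or 5 (adjusted p 0.0561 to 0.0762). Agt, which encodes angiotensinogen, differed by 3.70 ± 0.48. Ace, the angiotensin-converting enzyme, held 957, 898, 1009, 981 and 877 CPM in the aorta and 395, 369, 241, 228 and 383 CPM in the mesenteric arteries, a difference of -1.55 ± 0.17. Mme, neprilysin, which degrades vasoactive peptides, differed by -1.93 ± 0.34.

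S1P receptor genes differed in both directions. Of 16 genes of S1P handling tested, 5 were higher in the mesenteric arteries and 4 in the aorta (2 when libraries were scaled by totals alone). Both counts were near the shares of all genes tested, 23.3% and 19.7%. S1pr3 held 381, 304, 281, 273 and 437 CPM in the mesenteric arteries and 6.18, 4.11, 3.3002, 6.59 and 7.53 CPM in the aorta. Every mesenteric library was far above every aortic one, with a difference of 5.92 ± 0.27 (adjusted p = 2.68e-07), beside 6.30 in WT AngII and 7.51 in sham mice. S1pr1, abundant in endothelial cells, held 120.2, 159, 153, 116 and 175 CPM against 45.4, 59.3, 48.6, 45.3 and 47.1 CPM and differed by 1.56 ± 0.13 without overlap. S1pr2 held 37.8, 40.5, 32.2, 41.5 and 40.2 CPM in the aorta and 23.4, 24.4, 17.3, 18.3 and 20.5 CPM in the mesenteric arteries (difference -0.89 ± 0.11, adjusted p = 1.13e-04). In sham mice the S1pr2 difference was -0.02 ± 0.09 and was not called (adjusted p = 0.871); the KO and sham values were not tested against each other.

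S1P transport and breakdown genes also differed. Spns2, the S1P exporter of endothelium, held 45.6, 62.2, 107, 37.02 and 50.7 CPM against 11.3, 13.5, 8.63, 10.9 and 8.44 CPM in the aorta, a difference of 2.52 ± 0.28. Abcc1, a transporter that can carry S1P, differed by -1.24 ± 0.09, with every aortic library above every mesenteric one. Sgpp2, an S1P phosphatase, differed by 5.15 ± 1.09, and held 1.79, 1.03, 0.929, 16.1 and 1.12 CPM in the mesenteric arteries, replicate 4 being the high one, against 0.133, 0.274, 0.0667, 0.0336 and 0.0789 CPM in the aorta. Sphk2, the second sphingosine kinase, which the deletion does not target, held 27.2, 24.99, 28.2, 29.4 and 28.8 CPM in the mesenteric arteries and 34.9, 32.9, 37.002, 31.6 and 29.03 CPM in the aorta. These ranges overlapped (difference -0.26 ± 0.08, adjusted p = 0.0188), and the call was lost when libraries were scaled by totals alone (-0.13, adjusted p = 0.227). The Sphk2 call was also lost with replicate number as a block (adjusted p = 0.0547). It was lost without the 3 mesenteric libraries high in unaligned records (0.0536) and without the 2 highest in pancreatic markers (0.0745). S1pr4, a receptor of lymphocytes, was also called (difference 2.60 ± 0.40), as was Sgpp1, another S1P phosphatase (-0.29 ± 0.09). The Sgpp1 call was lost with scaling by totals alone (adjusted p = 0.265) and without the 2 mesenteric libraries highest in pancreatic markers (adjusted p = 0.110). S1pr5 and Apom were too low to test.

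**Figure D3:**
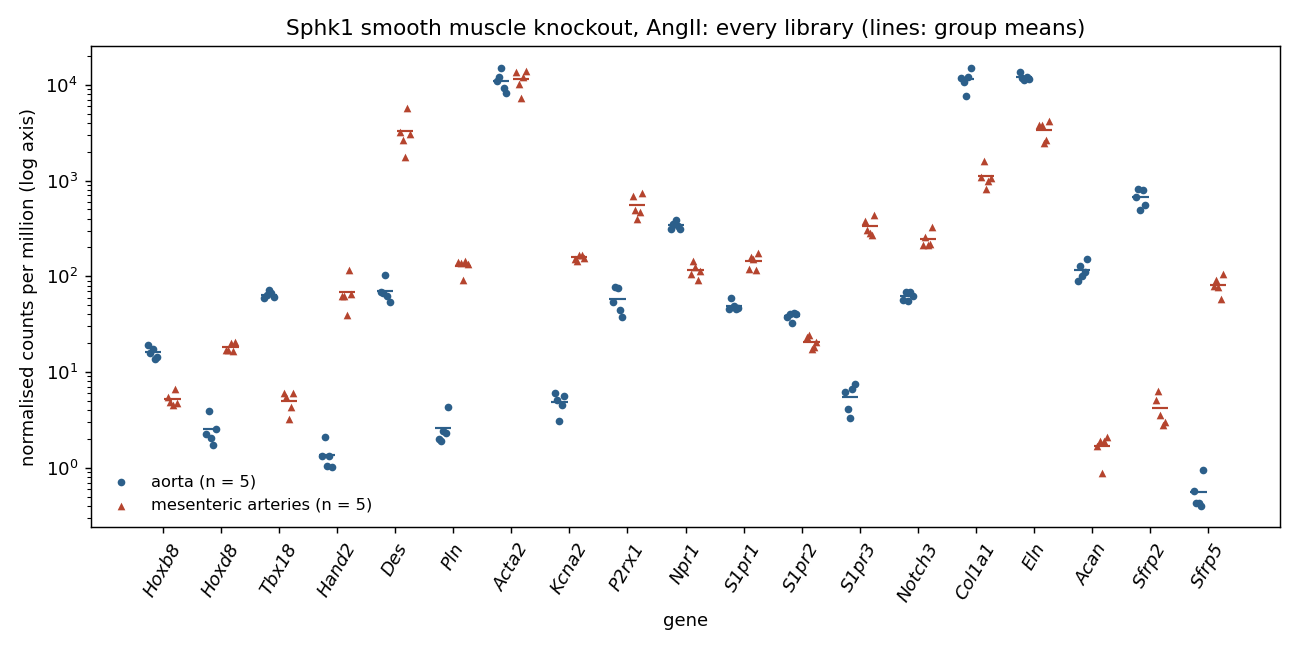
CPM (log axis) of 19 genes named in the text in each KO AngII library, aorta as circles and mesenteric arteries as triangles, with lines at the group means (n = 5 each). Acta2 overlaps between the vessels, while the 5 libraries of each vessel form separate groups for the other 18 genes, the mesenteric arteries being lower for Hoxb8, Tbx18, Npr1, S1pr2, Col1a1, Eln, Acan and Sfrp2.

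Most fibrillar collagen genes were higher in the aorta. Of 18 fibrillar and associated collagens tested, 14 were higher in the aorta and 1 in the mesenteric arteries, with a median of -1.46. Col1a1, a chain of type I collagen, held 11914, 10800.1, 7727, 12156 and 15042 CPM in the aorta and 1083, 1616, 817, 997 and 1054 CPM in the mesenteric arteries. The vessels did not overlap (difference -3.37 ± 0.23, adjusted p = 2.40e-06). Col3a1, of type III collagen, differed by -2.65 ± 0.24 and Col15a1, at the border of basement membranes, by -2.04 ± 0.12. The Col1a1 difference was -3.16 ± 0.22 in WT AngII and -1.26 ± 0.16 in sham mice, and that of Col3a1 was -2.58 ± 0.26 and -0.81 ± 0.13. Whether AngII changed these vessel differences was not tested here. Col5a3 was the collagen higher in the mesenteric arteries (difference 0.69 ± 0.18, adjusted p = 0.0124), with overlapping groups. Its call was lost without the 3 KO mesenteric libraries high in unaligned records (0.56, adjusted p = 0.127). It was also lost without the 2 highest in pancreatic markers (0.55, adjusted p = 0.0716).

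Elastic fibre and crosslinking genes, which build the lamellae of the aorta, were higher in the aorta for 14 of 22 tested and in the mesenteric arteries for 1, with a median of -1.18. Eln, the elastin gene, held 13461, 11706, 11145, 11952 and 11560.5 CPM in the aorta and 3792, 3827, 2441, 2669 and 4188 CPM in the mesenteric arteries. Each aortic Eln value was above each mesenteric one (difference -1.82 ± 0.17, adjusted p = 1.46e-05). Lox, the enzyme that crosslinks elastin and collagen, held 1441, 1247, 1257, 1524 and 1452 CPM against 351, 348, 218, 249 and 323 CPM (difference -2.22 ± 0.15). Ltbp3, which binds latent TGF-beta, differed by -1.87 ± 0.13. The exception was Efemp1, a fibulin, at 102, 139, 82.5, 85.8 and 79.9 CPM in the mesenteric arteries and 27.3, 26.5, 22.7, 30.4 and 28.99 CPM in the aorta (difference 1.85 ± 0.16).

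Proteoglycans and matricellular genes were mostly higher in the aorta as well: 26 of 34 were higher there and 2, Thbs1 and Vtn, in the mesenteric arteries (1 when any of several single libraries was left out), with a median of -1.45. Acan, encoding aggrecan, the large proteoglycan of cartilage, held 88.8, 128, 99.7, 110.0 and 150.1 CPM in the aorta and 1.67, 1.92, 0.888, 1.899 and 2.12 CPM in the mesenteric arteries. The difference of -6.07 ± 0.24 (adjusted p = 1.20e-07) was -6.20 in WT AngII and -6.29 in sham mice. Prelp, a leucine-rich proteoglycan that anchors basement membranes, differed by -2.02 ± 0.13. Spp1, osteopontin, held 135, 78.6, 80.1, 143 and 99.2 CPM against 7.06, 7.55, 4.52, 3.64 and 9.86 CPM and differed by -4.04 ± 0.30 in KO. Its difference was -1.07 ± 1.10 in WT AngII mice (adjusted p = 0.501) and 1.66 ± 0.41 in sham mice (adjusted p = 0.00787). The genotype test of Spp1 gave -2.98 ± 1.07 and did not pass (adjusted p = 0.988).

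Fibroblast markers, as a group of 12, were higher in the aorta for 6 and in the mesenteric arteries for 2, and their summed level was 8082 to 11218 CPM in the aorta and 4851 to 8177 CPM in the mesenteric arteries, ranges that overlapped. Their part in the matrix differences was not tested. Some list members are shared: Dcn, Lum and Mfap5 are matrix genes and fibroblast markers.

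Tendon, cartilage and bone genes were divided by gene: of 22 tested, 10 were higher in the aorta and 8 in the mesenteric arteries. Comp, a cartilage matrix protein, held 325, 247, 257, 326 and 452 CPM in the aorta and 27.04, 21.9, 17.1, 14.6 and 15.5 CPM in the mesenteric arteries (difference -4.06 ± 0.23). Scx, a tendon transcription factor, differed by -2.62 ± 0.28. Tnmd, a tendon membrane protein, held 14.01, 15.5, 19.9, 15.996 and 79.7 CPM in the aorta, replicate 5 being the high one, and 0.857, 0.498, 0.727, 0.869 and 1.16 CPM in the mesenteric arteries. Its difference was -5.14 ± 0.61 in KO, -5.07 in WT AngII and -0.12 ± 0.25 in sham mice, the last not called (adjusted p = 0.727). Sost, a bone gene outside the list that encodes the Wnt inhibitor sclerostin, held 716, 756, 919.8, 874 and 750.1 CPM in the aorta against 27.004, 16.7, 12.3, 17.5 and 34.6 CPM, a difference of -5.22 ± 0.29 with no overlap.

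Proteases and their inhibitors were higher in the aorta for 19 of 30 and in the mesenteric arteries for 6, the latter a share near the 23.3% of all genes tested. Adamts2, which trims procollagens, differed by -2.14 ± 0.20, Timp2, a metalloproteinase inhibitor, by -1.33 ± 0.13 and Serpinf1 by -2.45 ± 0.21. Timp4, another inhibitor of the family, was higher in the mesenteric arteries, at 68.1, 49.3, 41.6, 45.3 and 77.96 CPM against 10.4, 9.48, 7.17, 10.05 and 11.7 CPM (difference 2.53 ± 0.20), as was Mmp9 (2.09 ± 0.23). In basement membranes 11 of 23 were higher in the aorta and 5 in the mesenteric arteries, the latter again near the share of all genes. Npnt, an integrin ligand, differed by -2.34 ± 0.17 and Col4a5, a type IV collagen chain, by -1.80 ± 0.16, whereas the laminin gene Lama3 and the nidogen gene Nid2 differed by 2.11 ± 0.17 and 1.06 ± 0.13.

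**Figure D4:**
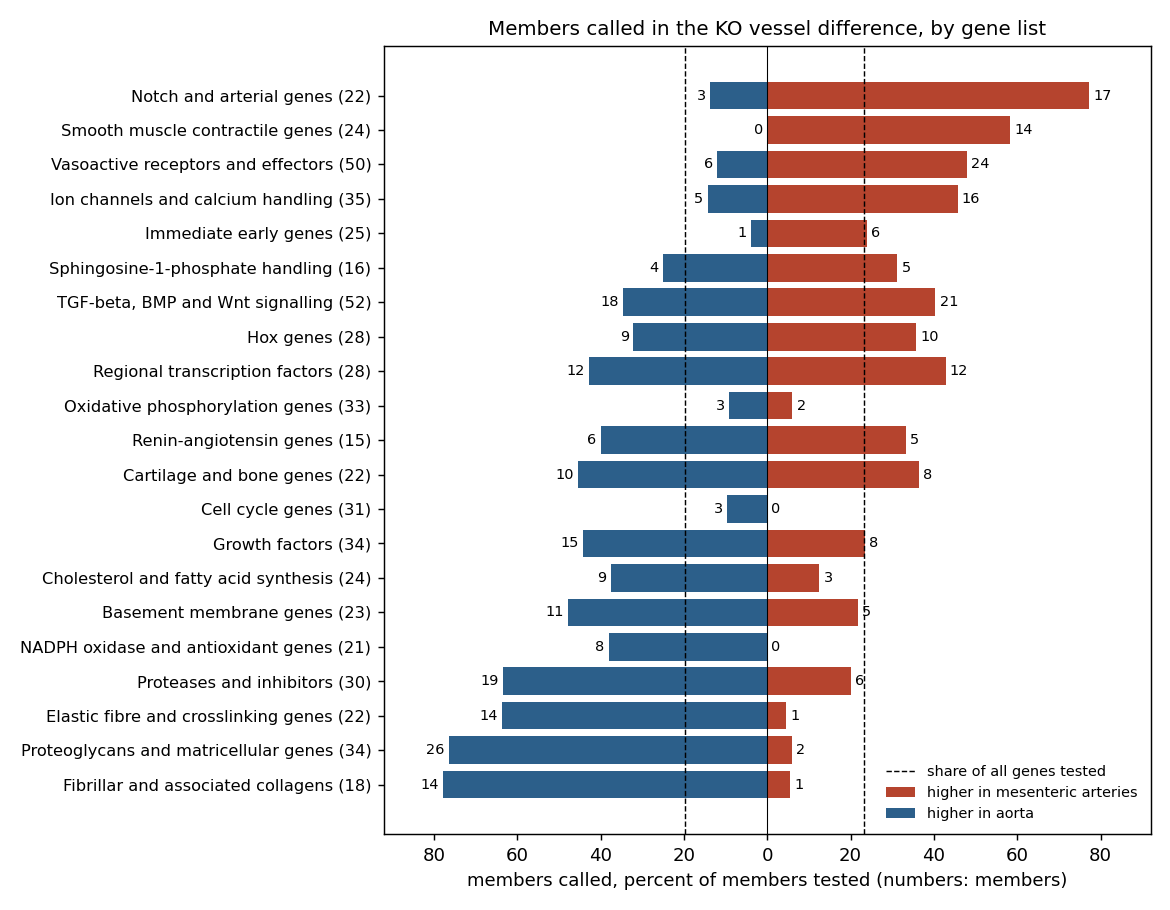
Members called in the KO vessel difference as a percentage of the members tested (in brackets), for the 21 gene lists that are not cell type markers; bars to the right are higher in the mesenteric arteries, bars to the left in the aorta, and dashed lines mark the shares over all genes (23.3% and 19.7%). Collagens, proteoglycans and elastic fibre genes reach furthest to the aortic side, and Notch and contractile genes to the mesenteric side.

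Notch and arterial genes were mostly higher in the mesenteric arteries, 17 of 22 tested against 3 higher in the aorta, with a median of 1.64. The WT AngII and sham comparisons called 17 and 3 each. Notch3, the Notch receptor of arterial smooth muscle, held 215, 258, 211, 218 and 326 CPM in the mesenteric arteries and 55.98, 67.8, 55.2, 68.4 and 62.04 CPM in the aorta. Those ranges were far apart (difference 1.99 ± 0.13, adjusted p = 2.00e-06). Dll4, a ligand made by arterial endothelium, held 21.5, 23.8, 22.5, 18.8 and 28.6 CPM against 5.34, 6.15, 4.4002, 4.54 and 5.88 CPM (difference 2.13 ± 0.14), and Hey1, a target gene of the pathway, held 15.8, 16.8, 14.1, 15.8 and 18.8 CPM against 5.202, 4.31, 4.0002, 4.81 and 4.58 CPM (difference 1.83 ± 0.11). The ligand gene Jag1 differed by 1.11 ± 0.12. In contrast Notch2, another receptor, and Rbpj, the DNA-binding partner of all Notch receptors, were higher in the aorta, with differences of -0.55 ± 0.11 and -0.47 ± 0.07, as was Nrp1, a semaphorin and VEGF co-receptor (-1.06 ± 0.17).

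Endothelial markers moved with these genes. Of 14 tested, 13 were higher in the mesenteric arteries and 1, Erg, in the aorta (-0.50 ± 0.11). Their summed level was 3923, 4154, 3542, 2452 and 3964 CPM in the mesenteric arteries and 1200.2, 1346, 1414, 928 and 955 CPM in the aorta, with no overlap. Cldn5, a tight junction protein of endothelium, differed by 2.38 ± 0.21 and Egfl7 by 2.25 ± 0.17. Several Notch list members (Dll4, Gja4, Gja5, Sox17, Sox18, Notch4) are expressed mainly in endothelium, and S1pr1 and Spns2 are too. The part of endothelial content in these results was not tested.

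TGF-beta, BMP and Wnt genes differed in both directions: of 52 tested, 21 were higher in the mesenteric arteries and 18 in the aorta. The secreted Frizzled-related proteins, which bind Wnt ligands, were split. Sfrp2 held 666, 818, 494, 804 and 558 CPM in the aorta and 5.099, 6.27, 3.59, 2.83 and 3.04 CPM in the mesenteric arteries. Sfrp5 held 79.7, 90.9, 76.5, 57.8 and 105 CPM in the mesenteric arteries and 0.578, 0.431, 0.433, 0.403 and 0.947 CPM in the aorta. Both sets of ranges were far apart, with differences of -7.32 ± 0.30 (adjusted p = 1.57e-07) and 7.20 ± 0.26 (adjusted p = 9.49e-08). In WT AngII mice they were -7.91 and 7.81.

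Wnt16, a Wnt ligand, held 114, 86.8, 111, 86.2 and 68.1 CPM in the aorta and 1.59, 0.961, 0.485, 0.773 and 0.832 CPM in the mesenteric arteries (difference -6.65 ± 0.27). Bmpr1b, a BMP receptor, differed by -4.53 ± 0.22. Grem1, a BMP antagonist, was on the mesenteric side. It held 73.2, 125, 54.2, 439.6 and 48.3 CPM, replicate 4 being the high one, against 0.311, 0.235, 0.50003, 1.18 and 2.13 CPM (difference 7.39 ± 0.91). Rspo1, which amplifies Wnt signals, differed by 2.34 ± 0.25. Wif1, a Wnt inhibitor, differed by -5.01 ± 0.40 in KO and -3.05 in WT AngII mice; the genotype test gave -1.96 ± 1.04 (adjusted p = 0.988).

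Growth factor genes were higher in the aorta for 15 of 34, beside 19.7% of all genes tested, and in the mesenteric arteries for 8, a share near the 23.3% of all genes. Bdnf, a neurotrophin, held 36.3, 25.5, 34.6, 32.2 and 25.3 CPM in the aorta and 6.404, 4.41, 1.82, 5.47 and 4.78 CPM in the mesenteric arteries (difference -2.75 ± 0.28). Angpt2, an antagonist ligand of the Tie2 receptor, and Igfbp5, which binds insulin-like growth factors, differed by -1.26 ± 0.14 and -1.61 ± 0.15. Vegfc, the lymphatic growth factor, held 46.5, 35.6, 39.2, 30.1 and 49.9 CPM in the mesenteric arteries and 11.6, 15.3, 12.6, 13.6 and 10.9 CPM in the aorta, a difference of 1.65 ± 0.15. Vegfa differed by 0.65 ± 0.11 and Igf2, low in both vessels, by 3.93 ± 0.42.

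Few genes of cell division and respiration were called. Of 31 cell cycle genes 3, Ccne2, Mcm6 and E2f1, were higher in the aorta and 0 in the mesenteric arteries (6 in the aorta without mesenteric replicate 3, and 1 without aortic replicate 5). Of 33 oxidative phosphorylation genes 3 were higher in the aorta (Cox7a1, Cox7b and Cox8b) and 2 in the mesenteric arteries (Sdhc and Cox6c). The aortic count was 7 without mesenteric replicate 4, the mesenteric one 5 without mesenteric replicate 3 and 1 without most other single libraries. Scaling by totals alone gave 8 in the mesenteric arteries. Cox7a1 (difference -3.41 ± 0.44) and Cox8b (-4.13 ± 0.52) are also brown adipocyte markers. Fatty acid and cholesterol synthesis genes were higher in the aorta for 9 of 24, with Scd1 at -2.12 ± 0.57 and Fasn, the fatty acid synthase gene, at -1.88 ± 0.40, and in the mesenteric arteries for 3 (Lss and Idi1 among them; 1 without mesenteric replicate 1 or aortic replicate 2 or 4). Of 21 NADPH oxidase and antioxidant genes 8 were higher in the aorta and 0 in the mesenteric arteries. Nox4, the oxidase subunit abundant in smooth muscle, held 467, 471, 637, 543 and 463 CPM in the aorta and 225, 167, 129, 172 and 199 CPM in the mesenteric arteries, a difference of -1.53 ± 0.15. Sod3, the extracellular superoxide dismutase, differed by -2.28 ± 0.16.

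Immediate early genes, which respond within minutes to stimulation or tissue handling, were higher in the mesenteric arteries for 6 of 25, a share near the 23.3% of all genes tested, and in the aorta for 1 (Fosl1). Without aortic replicate 4 the mesenteric count was 11. Nr4a1 held 168, 103, 74.8, 182 and 131 CPM in the mesenteric arteries and 44.2, 34.04, 33.8, 86.8 and 27.4 CPM in the aorta (difference 1.54 ± 0.35, adjusted p = 0.00492). Aortic replicate 4 was the highest aortic library for Nr4a1 and for Fos, which differed by 0.98 ± 0.52 and was not called (adjusted p = 0.155); without that library Fos differed by 1.68 (adjusted p = 0.00850). In WT AngII mice 0 were higher in the mesenteric arteries and 2 in the aorta, and in sham mice 14 and 3.

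Markers of other cell types showed what else the samples held. Lymphatic endothelial markers were higher in the mesenteric arteries for 8 of 9 tested, with summed levels of 442, 698, 1353, 317 and 511 CPM against 126, 132, 107, 144 and 134 CPM. Reln, which collecting lymphatics secrete, held 60.9, 86.2, 89.8, 50.4 and 70.8 CPM against 4.27, 4.23, 1.6001, 5.75 and 3.83 CPM (difference 4.19 ± 0.31). Schwann cell and neuronal markers were higher for 11 of 14 and lower for 1, with summed levels of 741 to 1043 CPM against 381 to 405 CPM. Cdh19, a cadherin of Schwann cells, held 120.3, 138, 134, 128 and 169 CPM in the mesenteric arteries and 2.49, 2.899, 1.6001, 2.55 and 4.69 CPM in the aorta. The difference of 5.60 ± 0.25 (adjusted p = 2.37e-07) stood beside 6.41 in WT AngII and 7.02 in sham mice. The 1 lower in the mesenteric arteries was Pmp22, a myelin protein gene that fibroblasts also express (-0.40 ± 0.11). Snap25, a synaptic protein gene named after its values were seen, held 0.693, 1.74, 0.848, 61.3 and 1.37 CPM in the mesenteric arteries and 0, 0.0783, 0.0333, 0 and 0 CPM in the aorta. Mesenteric replicate 4 was the high library, as it was for Gdnf, a growth factor for enteric neurons, at 1.26, 0.854, 0.929, 5.83 and 1.41 CPM.

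Pancreatic and gut markers were present in the mesenteric libraries. The 14 acinar markers summed to 67.3, 32482, 560.4, 1132 and 75987 CPM in mesenteric replicates 1 to 5 and to 7.05 to 10.5 CPM in the aorta. Replicates 2 and 5 held far more than the others. Cpa1, a carboxypeptidase secreted by the pancreas, held 5.51, 2459, 48.2, 91.2 and 6376 CPM in the mesenteric arteries and no count in any aortic library. Set against 3 counts per aortic library (0.114 CPM), the mesenteric mean was higher by at least 13.94 on the log2 scale. All 13 tested acinar markers were called with edgeR, 0 with limma voom and 7 without the filter on low counts. Without the 3 mesenteric libraries high in unaligned records, 7 were called. The 12 largest differences towards the mesenteric arteries among called genes without overlap were 10 of these markers and Pnliprp1 and Reg1, which are also pancreatic genes. Of 10 gut epithelial markers tested all 10 were called, with summed levels of 46.03 to 256 CPM against 9.67 to 16.96 CPM. Vil1, a microvillus protein, held 23.9, 19.2, 3.11, 9.95 and 4.87 CPM against 0.222, 0.313, 0.467, 0.3696 and 0.197 CPM. Leaving out mesenteric replicates 2 and 5 left 3496 genes called towards the mesenteric arteries and 2890 towards the aorta.

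Immune markers varied between the mesenteric libraries. All 13 tested lymphocyte markers were higher in the mesenteric arteries (4 of 13 in WT AngII mice), with summed levels of 1003, 176, 2091, 51.96 and 302 CPM against 32.5 to 52.8 CPM in the aorta. Replicates 1 and 3 were highest and replicate 4 was within the aortic range. Jchain, the joining chain of secreted antibodies, held 442, 20.01, 453, 9.27 and 49.5 CPM against 5.16, 0.4701, 0.567, 1.44 and 0.868 CPM (difference 6.88 ± 1.35, adjusted p = 0.00224), and Ms4a1, encoding CD20 of B cells, held 11.3, 3.56, 86.1, 1.803 and 8.403 CPM against 0.711, 0.392, 0.10000, 0.437 and 0.868 CPM. Without replicates 1 and 3, 3695 genes were called towards the mesenteric arteries and 3442 towards the aorta. Of 12 macrophage markers 0 were called in either direction, and without mesenteric replicate 3, 10 were higher in the aorta. Csf1r, the receptor for macrophage colony-stimulating factor, held 70.1, 109.5, 645, 40.8 and 122 CPM in the mesenteric arteries and 196, 183, 192, 170.2 and 173 CPM in the aorta. Replicate 3 was the single mesenteric library above the aorta; with it the difference was 0.11 ± 0.64 (adjusted p = 0.905) and without it -1.10 (adjusted p = 0.00937). Lyz2, a lysozyme of macrophages, differed by -0.61 ± 0.31 with all libraries (adjusted p = 0.139) and by -0.98 without replicate 3 (adjusted p = 0.00413).

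Adipocyte, mast cell, mesothelial and pericyte markers differed in part. Brown adipocyte markers were higher in the aorta for 8 of 11 tested and in the mesenteric arteries for 1 (Ppargc1a), with summed levels of 303 to 649 CPM in the aorta and 71.9 to 122 CPM in the mesenteric arteries. Ucp1, the uncoupling protein of brown fat, held 109, 219, 61.2, 194 and 250.5 CPM in the aorta and 0.0408, 0.142, 0.162, 0.0322 and 0 CPM in the mesenteric arteries, the widest difference on the aortic side among the genes named by rule (-11.02 ± 0.63). White adipocyte markers were higher in the aorta for 4 of 14 (Plin1, Lipe, Pnpla2 and Lpl) and in the mesenteric arteries for 1 (Slc2a4). Leaving out mesenteric replicate 2 raised the aortic count to 10, and leaving out mesenteric replicate 1 lowered it to 2. Mast cell markers were higher in the aorta for 5 of 7, Cpa3 by -1.73 ± 0.31, and in the mesenteric arteries for 1 (Hdc). They include Cma1, a chymase that can form AngII and is also on the renin-angiotensin list (-1.72 ± 0.38). Summed levels of the mast cell list overlapped, at 15.9 to 84.6 CPM in the mesenteric arteries and 20.3 to 59.0 CPM in the aorta. In WT AngII mice 4 of the 7 were higher in the aorta and 0 in the mesenteric arteries, and in sham mice 0 and 1. Mesothelial markers were higher in the mesenteric arteries for 5 of 12 (9 without mesenteric replicate 5), Wt1 by 2.30 ± 0.47. Pericyte markers were divided. Of 10, 5 were higher in the mesenteric arteries (Rgs5, Higd1b, Notch3, Vtn and Cox4i2) and 3 in the aorta (Abcc9, Ndufa4l2 and Postn). Their summed level was higher in the aorta, at 6830 to 7928 CPM against 3276 to 5727 CPM in the mesenteric arteries, with no overlap. Of 10 striated muscle markers 2 (Tnnt2 and Actc1) were higher in the mesenteric arteries and 1 (Tnnt3) in the aorta. Both were below the shares of all genes tested, 23.3% and 19.7%. The mesenteric count was 6 without aortic replicate 2. Summed levels were 113 to 239 CPM in the mesenteric arteries and 23.1 to 154 CPM in the aorta. Of 7 erythroid markers 4 were higher in the mesenteric arteries (Hba-a1, Hbb-bs and Bpgm among them; 7 without mesenteric replicate 1), with summed levels of 85.7 to 240.2 and 57.7 to 67.1 CPM. The part of these cell types in the other results was not tested.

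**Figure D5:**
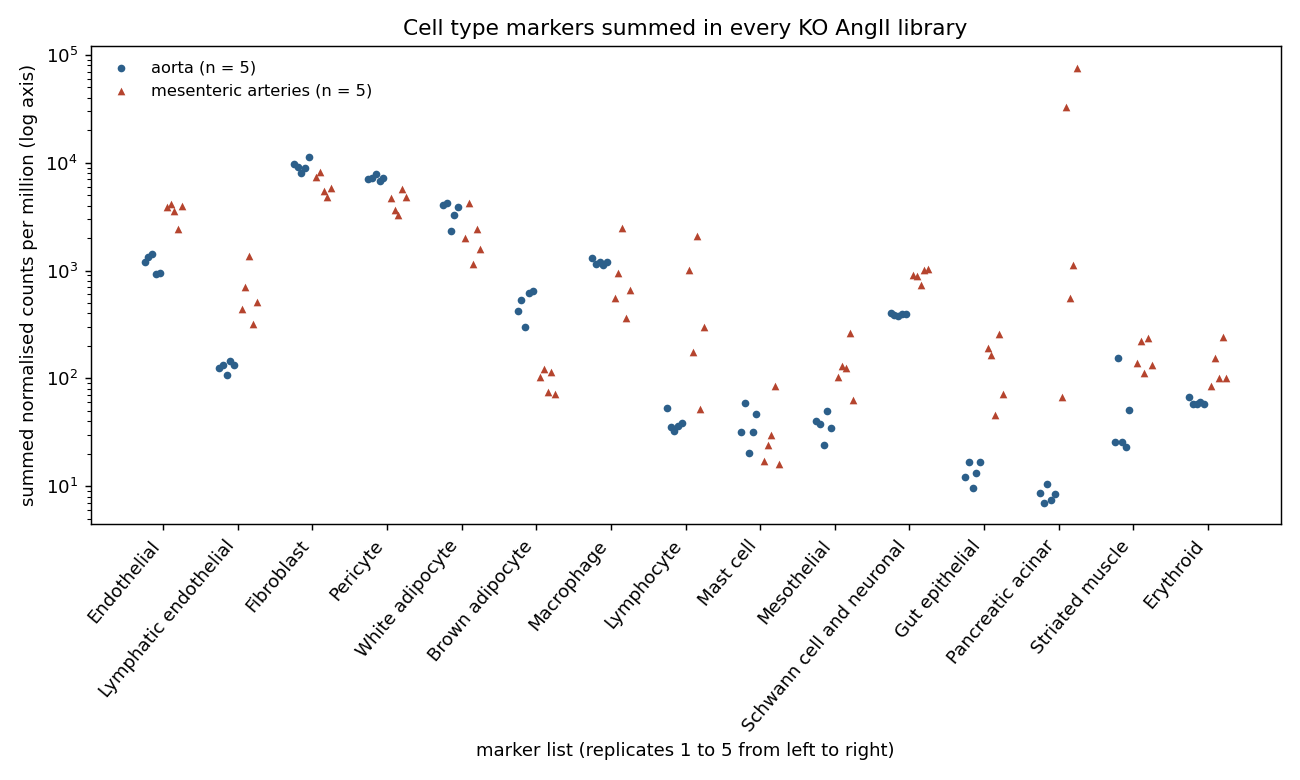
Summed CPM (log axis) of each cell type marker list in the 5 aortic (circles) and 5 mesenteric (triangles) KO AngII libraries, replicates 1 to 5 from left to right. The mesenteric libraries spread from 67.3 to 75987 CPM for acinar and from 52.0 to 2091 CPM for lymphocyte markers, whereas the aortic ones stay between 7.05 and 10.5 CPM and between 32.5 and 52.8 CPM.

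Ranked by adjusted p in place of size, the leading genes were named after their values were seen. Corin, a protease that activates atrial natriuretic peptide, held 41.8, 28.7, 27.6, 34.4 and 40.6 CPM in the mesenteric arteries and 0.0445, 0.0392, 0.0667, 0.101 and 0.0789 CPM in the aorta (difference 8.91 ± 0.23, adjusted p = 9.68e-09). Cadm4, a cell adhesion protein of Schwann cells, differed by 6.03 ± 0.18, and Sostdc1, a secreted antagonist of BMP and Wnt signals, by 6.05 ± 0.21. Abcb1a, the efflux pump P-glycoprotein, held 40.95, 41.1, 36.9, 38.4 and 37.7 CPM against 4.31, 5.41, 3.53, 4.402 and 4.89 CPM (difference 3.11 ± 0.11). On the aortic side Myh10, a non-muscle myosin heavy chain, held 537, 560.1, 644, 621 and 553 CPM against 80.5, 84.2, 64.1, 91.6 and 89.6 CPM (difference -2.83 ± 0.11, adjusted p = 1.11e-07). Coq8a, a kinase-like protein needed for coenzyme Q synthesis, held 107, 125, 119, 102 and 116 CPM in the aorta and 20.5, 20.9, 18.1, 18.6 and 20.7 CPM in the mesenteric arteries (difference -2.53 ± 0.07). Fbln7, a fibulin, differed by -2.87 ± 0.12. All of these genes were called in the same direction in WT AngII and sham mice.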

How the data were processed

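RNA of aorta and mesenteric arteries was sequenced as poly(A) libraries in 26 samples. The deposited values are raw read counts per gene identifier; per the submitters' processing notes, cutadapt, HISAT2, HTSeq and GRCm39 were used, with versions, annotation and strand setting not given in the sources used here. Of 55414 identifiers shared by both tissues' files, 52081 had a symbol in the reference table. Samples were grouped by their labels, and each group's libraries differed by more than counting noise. Reads of genes that overlap or have near-identical copies may have been lost or split.

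Each vessel difference was fitted on its own libraries with edgeR 4.0.16 (R 4.3.3; quasi-likelihood, robust, TMM scaling, filterByExpr), tissue as the only term, and Benjamini-Hochberg adjustment over all genes tested; adjusted p-values in the report come from it. The labels do not say that replicates are separate animals, so p-values measure the spread between samples. Members and lists were chosen with earlier results of these data known. The text names up to 3 called genes per list and direction by adjusted p, the 12 largest differences per direction, and, after values were seen, members of small counts, the neuronal genes and the genes leading by adjusted p; some genes that this would name are not reported here. The fits were tested on simulated counts, where 47 of 67 2-fold vessel differences were recovered (70.1%). That rate holds for the changed genes of the simulation and is not split by expression level. Alternatives were scaling, filters, DESeq2 1.42.0, limma 3.58.1 (voom), a fit of all libraries, a replicate block and leaving out each library; leaving out libraries high in unaligned records, pancreatic or lymphocyte markers was added after seeing the data.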

Additional observations from a re-analysis of the deposited data

Results flagged for a closer look

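Groups of 5 libraries, 416 in all, were searched for 1 library apart from the other 4 (Dixon's test). They held genes and summed marker lists, taken as log2 of CPM plus 0.08, and measures of the libraries such as depth and unaligned records. In 25 the gap was more than 0.71 of the group's range, on the log2 scale for genes and lists. Chance alone marks about 1 group in 20, and here it was 6.01%. This share cannot be judged against chance, because some genes searched, Snap25 among them, had been picked with their levels already known. The same limit applies to the count given for mesenteric replicate 4. The values below are given in CPM.

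Mesenteric replicate 4 was apart in 5. It was high for Snap25 (61.3 CPM, the others at most 1.74), Gdnf (5.83 CPM, at most 1.41) and Sgpp2 (16.1 CPM, at most 1.79). It was low for Mcm6 (37.8 CPM, at least 47.7) and Sox18 (42.8 CPM, at least 67.3). Mesenteric replicate 3 was low for Pln (90.8 CPM, at least 136), Acan (0.888 CPM) and Bmpr1b (0.808 CPM) and high for Notch2 (117 CPM, at most 84.8). Mesenteric replicate 5 was high for Igf2 (3.49 CPM) and Wif1 (1.08 CPM), and replicate 2 was low for Idi1 (10.04 CPM).

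In the aorta, replicate 5 was high for Tnmd (79.7 CPM, the others at most 19.9) and Pln (4.34 CPM) and low for Ano1 (138 CPM) and Cacna1h (4.34 CPM). Replicate 2 was high for Hoxc10 (0.470 CPM), S1pr1 (59.3 CPM), Tnnt3 (19.1 CPM, at most 2.83) and Pnlip (0.0783 CPM, the others at 0). Replicate 3 was high for Nr3c2 (17.1 CPM) and low for Hba-a1 (6.60 CPM) and Higd1b (0.167 CPM). Replicate 1 was high for the summed erythroid markers (67.1 CPM, at most 59.8), and replicate 4 was low for Galnt2 (0.571 CPM, at least 0.749).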

How the results depend on the processing

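Counts of called genes stayed within 1.5 times of those reported under each alternative, except 2 cases. Scaling by library totals alone gave 1763 genes higher in the WT AngII aorta in place of 2761, and DESeq2 gave 3 and 8 genes for the genotype difference in place of 0 and 0; the cause was not tested. With each library left out in turn, 3411 to 4016 genes were higher in the KO mesenteric arteries and 2922 to 3690 in the KO aorta, 2154 to 2877 and 2209 to 2796 in WT AngII mice, 3368 to 3810 and 2955 to 3594 in sham mice, 3799 to 4698 were called the same way in KO and WT AngII mice, and 0 to 0 for the genotype difference. Without the 3 mesenteric libraries high in unaligned records the KO counts were 3881 and 3806.

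The replicate numbers were not shown to pair the tissues: same-numbered KO libraries correlated at 0.0751, 0.061, -0.13, 0.0939 and -0.149, WT AngII ones at 0.156, 0.177, 0.185 and 0.06, and sham ones at 0.0624, 0.169, -0.0226 and 0.00603. The correlation was highest with the own number for 1 of 5 KO, 3 of 4 WT AngII and 2 of 4 sham pairs. With the replicate block the counts were 3080 and 2939 in KO, 2586 and 2620 in WT AngII and 3533 and 3330 in sham mice, 4113 called the same way, and 0 for the genotype difference.

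Of 188 genes named, Csf1r alone was called with the opposite sign under an alternative: it was at 0.11 with all libraries, -0.87 with limma voom, -1.10 without mesenteric replicate 3, -0.94 without the 3 libraries high in unaligned records and -1.01 without the 2 highest in lymphocyte markers; leaving out single libraries gave -1.10 to 0.37. Calls of 33 genes were lost under at least 1 alternative, 15 of them when a single library was left out: Agtr1a, Cacna1d, Ccne2, Cox6c, Cox7b, E2f1, Hdc, Idi1, Kcnmb1, Lpl, Lss, Myl9, Plin1, Ppargc1a and Thbs1. Sphk1 was called with scaling by totals alone (0.68, adjusted p = 0.0440). Lymphocyte markers fell from 13 to 8 calls with the stricter filter. Depth limits genes near the floor of 3 counts per library, 0.114 CPM.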

Other observations

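Several genes were at or near 0 in every aortic library of the series, KO and WT, and well counted in every mesenteric one. Galnt2, a glycosyltransferase that starts mucin-type O-glycosylation, was at 0.478 to 0.785 CPM in 13 aortic libraries and at 120.1 to 167 CPM in 13 mesenteric ones, the smallest adjusted p of the KO vessel difference (7.63 ± 0.12, adjusted p = 1.72e-10). Hpse2, a relative of heparanase, had no count in any of the 13 aortic libraries and 30.1 to 78.2 CPM in the mesenteric ones. Dhrs2, a short-chain dehydrogenase, had no aortic count and 1.41 to 5.70 CPM in the mesenteric arteries. Corin was at 0 to 0.228 CPM in the aorta and 27.2 to 82.7 CPM in the mesenteric arteries. No gene showed the reverse, with no count in the 13 mesenteric libraries and at least 1 CPM in each aortic one. These genes were chosen after their values were seen. Because the tables of the tissues differ in form, a difference in counting and a difference between the vessels cannot be told apart for them.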
